A study of Mus musculus with 7 samples.

Results

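Keratin genes were followed through the H3K27me3 chromatin of mouse spermatocytes at postnatal days 12 (P12) and 17 (P17). The members were all symbols of the deposited gene-body count files that read Krt followed only by digits and that had a single entry, which gave 48 genes of 23220 symbols with a single entry. Of these, 4 are keratins of simple epithelia (Krt7, Krt8, Krt18 and Krt19), and the other 44 are mostly keratins of skin, mucosa and hair. The rule used names only, not read counts, but it was set with earlier results of these data known. Chromatin immunoprecipitation and sequencing was done on spermatocytes of wild-type mice of the CD1 strain at both ages. The cells were isolated from digested testes over percoll. The P12 file came from 1 replicate and the P17 file from 2 replicates pooled, so each stage had 1 library here and no replicate check. The 2 libraries held 13462873 and 26664736 counted reads. H3K27me3 reads do not measure expression, so the labelled cell type could not be checked against its markers. A read count from bulk chromatin does not separate fewer cells carrying the mark from less of the mark per cell.

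Keratins are the intermediate filament proteins of epithelial cells. An acidic type I keratin always assembles with a basic type II keratin, and each epithelium uses its own combination, such as Krt8 with Krt18 in simple epithelia and Krt5 with Krt14 in the basal layer of the epidermis. In mammals the type I genes lie together in a cluster and the type II genes in another, with the type I gene Krt18 placed beside its partner Krt8 in the type II cluster. Germ cells are not epithelial, and H3K27me3, the mark laid down by Polycomb repressive complex 2 (PRC2), is known for covering genes of other lineages. Whether the keratin genes carried the mark above background was not tested here, as neither input nor peaks were used. In a table of RefSeq gene names, 25 members lay on chromosome 11 and 22 on chromosome 15. Krt85 was not matched in it.

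The upstream sequence of 5 members is shown because these genes mark the ends of what follows. Krt8 and Krt18 had the highest P17/P12 ratios of all members, Krt7 was the simple epithelial gene that did not share them, Krt27 had the highest ratio outside the simple epithelial class, and Krt36 had the lowest ratio. Each run is the 250 bases before the start site from RefSeq (build GRCm38.p6), written 5′ to 3′ on the gene's strand, with CpG dinucleotides in capitals.
Krt8 (chr15:102004343-102004592, minus strand, 3 CpGs): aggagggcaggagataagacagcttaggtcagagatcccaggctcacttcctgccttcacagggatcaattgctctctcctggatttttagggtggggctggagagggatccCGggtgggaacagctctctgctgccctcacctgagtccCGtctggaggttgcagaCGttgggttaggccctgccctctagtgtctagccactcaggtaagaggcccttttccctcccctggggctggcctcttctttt
Krt18 (chr15:102027966-102028215, plus strand, 12 CpGs): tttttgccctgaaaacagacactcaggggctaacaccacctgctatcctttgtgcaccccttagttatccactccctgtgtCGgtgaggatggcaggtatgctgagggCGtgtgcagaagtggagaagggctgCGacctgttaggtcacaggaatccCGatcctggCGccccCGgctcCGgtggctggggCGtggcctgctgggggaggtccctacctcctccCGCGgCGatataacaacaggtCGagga
Krt7 (chr15:101412153-101412402, plus strand, 16 CpGs): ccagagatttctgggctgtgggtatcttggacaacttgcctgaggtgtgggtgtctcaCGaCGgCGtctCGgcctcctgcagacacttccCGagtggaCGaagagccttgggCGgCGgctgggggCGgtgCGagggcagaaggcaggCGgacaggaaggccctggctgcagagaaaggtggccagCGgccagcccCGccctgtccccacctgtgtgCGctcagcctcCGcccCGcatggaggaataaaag
Krt27 (chr11:99351119-99351368, minus strand, 5 CpGs): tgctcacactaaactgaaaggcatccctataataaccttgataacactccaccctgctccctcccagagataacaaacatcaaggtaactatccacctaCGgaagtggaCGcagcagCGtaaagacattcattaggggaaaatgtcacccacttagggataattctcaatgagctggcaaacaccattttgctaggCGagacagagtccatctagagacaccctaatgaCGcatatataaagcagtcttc
Krt36 (chr11:100105627-100105876, minus strand, 2 CpGs): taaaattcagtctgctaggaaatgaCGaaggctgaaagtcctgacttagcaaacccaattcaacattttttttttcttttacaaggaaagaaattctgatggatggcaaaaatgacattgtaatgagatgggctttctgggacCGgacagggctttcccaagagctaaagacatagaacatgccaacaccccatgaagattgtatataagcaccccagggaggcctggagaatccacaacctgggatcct
PRC2 is known to favour CpG-rich DNA. Krt7 and Krt18 carried the most CpGs of the keratin windows, 16 and 12, whereas Krt8 carried 3.

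Over the whole set, keratin genes moved little between the libraries. Together the 48 genes held 0.103% of the counted reads at P12 and 0.0966% at P17. No keratin was over 2-fold higher at P17 with a 95% interval excluding a ratio of 1, a call that took 2.57% of 21808 genes with at least 20 reads. None was over 2-fold lower, a call that took 0.335% of genes. For 48 genes, counts of 0 are near those shares, so neither is a result about the keratins as a set. The log2 ratio of the scaled reads (CPM, reads in a gene relative to all counted reads of its library), P17 over P12, had a median of -0.14 over the keratins and of -0.08 over all genes. The full range of keratin ratios was -0.72 to 0.66. Over all genes the full range was -2.46 to 3.50, and the central 80% ran from -0.34 to 0.47. The median level of the keratins was 14.2 CPM at P12 and 13.3 CPM at P17. Over all genes it was 15.1 CPM at both stages, without scaling to gene length. Each interval given here is an exact conditional 95% interval and covers counting error only.

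Against the ratio of the typical gene, taken as the all-gene median, 7 of the 48 keratin intervals lay wholly above and 5 wholly below. The same calls took 21.2% and 10.1% of all genes, so neither count is a result about the keratins as a set. What stood apart within the family was the place of the simple epithelial genes. They supplied 3 of the 7 intervals above, from 4 genes, and the other 44 genes supplied 4. Krt8 and Krt18 ranked 1 and 2 of the 48 by ratio, Krt19 ranked 5 and Krt7 ranked 29.

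**Figure D1:**
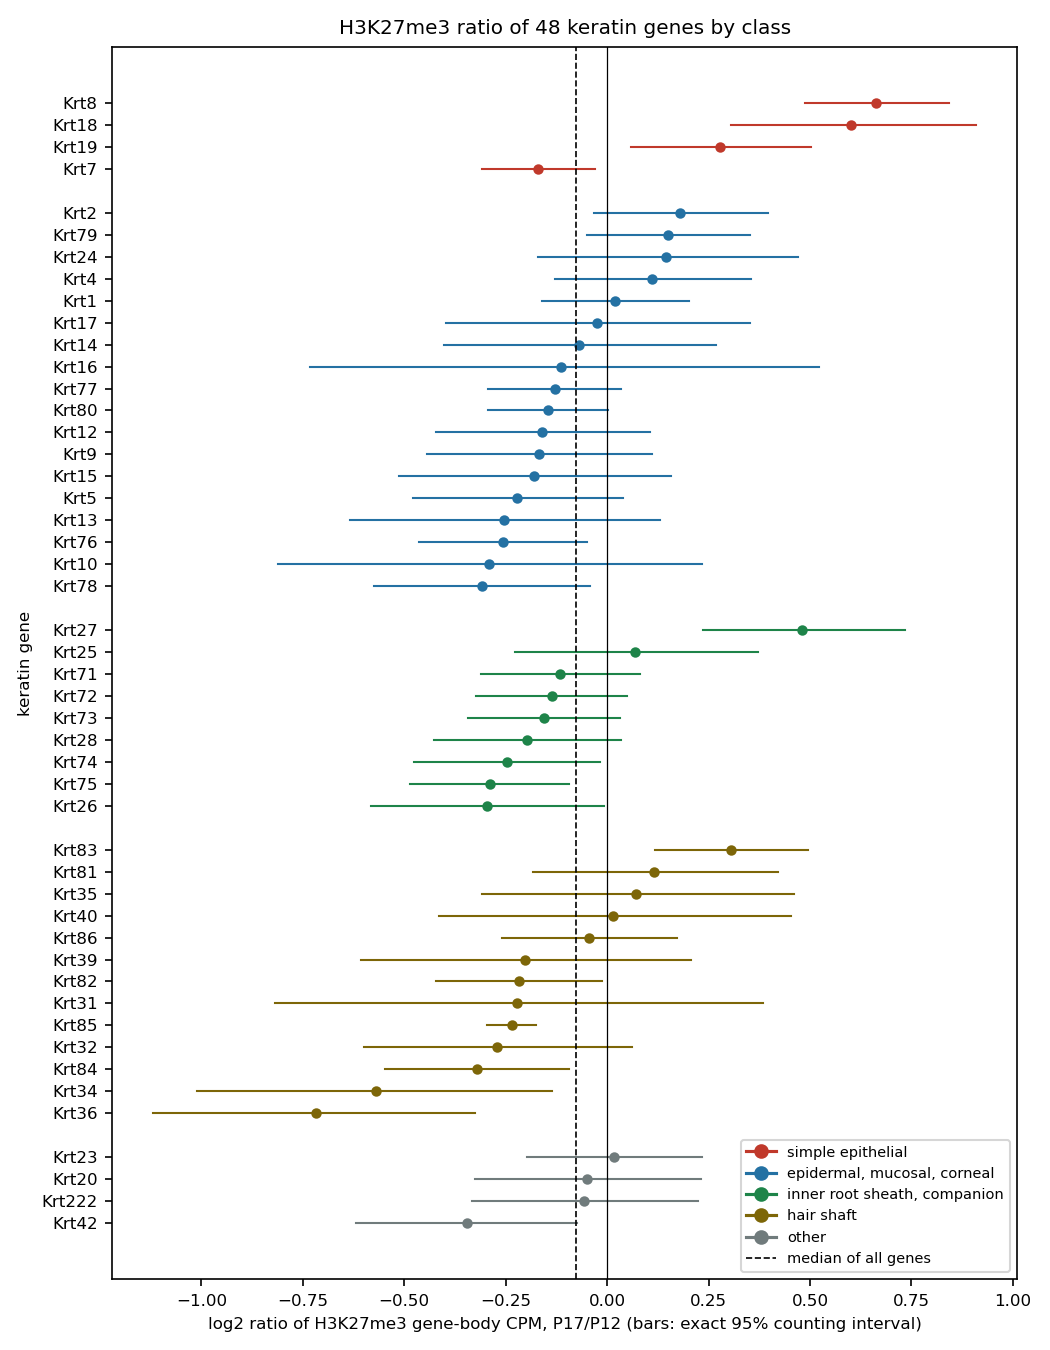
Each point is the log2 ratio of H3K27me3 gene-body CPM, P17 over P12, of 1 keratin gene, with its exact 95% counting interval as a bar and genes grouped by class. Krt8 at 0.66 and Krt18 at 0.60 lie to the right of every other keratin, Krt7 lies at -0.17, and Krt36 is lowest at -0.72.

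Among the simple epithelial keratins, Krt8, the type II keratin of simple epithelia, had 345 reads at P12 and 1083 at P17. That is 25.6 CPM (exact Poisson 95% interval 23.0 to 28.5) and 40.6 CPM (38.2 to 43.1). The intervals of the 2 libraries did not overlap, and the log2 ratio was 0.66 (0.49 to 0.84), a 1.58-fold difference. The RefSeq table also lists a pseudogene of it, Krt8-ps, so the assignment of reads in exons is uncertain.

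Krt18, its type I partner, had 123 and 370 reads, or 9.14 CPM (7.59 to 10.9) and 13.9 CPM (12.5 to 15.4). These intervals did not overlap either, and the log2 ratio was 0.60 (0.30 to 0.91), or 1.52-fold. Of all genes tested, 93.7% had ratios no higher than Krt8 and 92.7% had ratios no higher than Krt18. Both genes were therefore in the upper part of the genome's distribution but not at its end.

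Krt19, a small type I keratin of simple and ductal epithelia that lies in the type I cluster, had 241 and 579 reads. Its level was 17.9 CPM (15.7 to 20.31) at P12 and 21.7 CPM (19.98 to 23.6) at P17, so the intervals of the 2 libraries overlapped slightly. Its log2 ratio of 0.28 (0.06 to 0.50) was above that of the typical gene.

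Krt7, a type II keratin of ductal and glandular epithelia, did not share the higher ratio. It had 662 and 1165 reads, or 49.2 CPM (45.5 to 53.1) and 43.7 CPM (41.2 to 46.3). Its log2 ratio of -0.17 (-0.31 to -0.03) had an interval that spanned the typical gene.

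These 4 genes therefore did not move alike. The differences between their log2 ratios were compared over 6 pairs, each with an exact conditional 95% interval that does not depend on how the libraries are scaled. Krt8 exceeded Krt7 by 0.83 (0.61 to 1.06), Krt18 exceeded Krt7 by 0.77 (0.44 to 1.11), and Krt19 exceeded Krt7 by 0.45 (0.19 to 0.71). Krt8 also exceeded Krt19 by 0.39 (0.10 to 0.67). The difference of 0.32 between Krt18 and Krt19 had an interval from -0.05 to 0.70, and that of 0.06 between Krt8 and Krt18 one from -0.29 to 0.41. In order of ratio, Krt8 and Krt18 could thus not be separated at this depth, nor Krt18 and Krt19, while Krt7 lay below the other three. The intervals are not adjusted for the number of pairs.

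Set against the other keratins, the simple epithelial class had a median log2 ratio of 0.44 and the other 44 genes one of -0.15, with ranges of -0.17 to 0.66 and -0.72 to 0.48 that overlapped. The difference of the medians was 0.59. With Krt20, of intestinal and urothelial cells, and Krt23 counted as simple epithelial it was 0.31. With reads pooled within each class, the simple epithelial genes had 1371 and 3197 reads (log2 ratio 0.24, 0.14 to 0.33) and the others 12469 and 22574 (-0.13, -0.16 to -0.10). The difference of the pooled ratios was 0.37 (0.27 to 0.46). Krt7 and Krt85 weighed on these sums. Without Krt85 the others stood at -0.09, and the difference was 0.33 (0.23 to 0.43). Leaving out Krt7 as well raised the simple epithelial ratio to 0.53 and the difference to 0.62 (0.49 to 0.75). Krt7 alone differed from the others without Krt85 by -0.08 (-0.22 to 0.06). The contrast between the classes was carried by Krt8, Krt18 and Krt19, and genes of a class are not replicates.

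**Figure D2:**
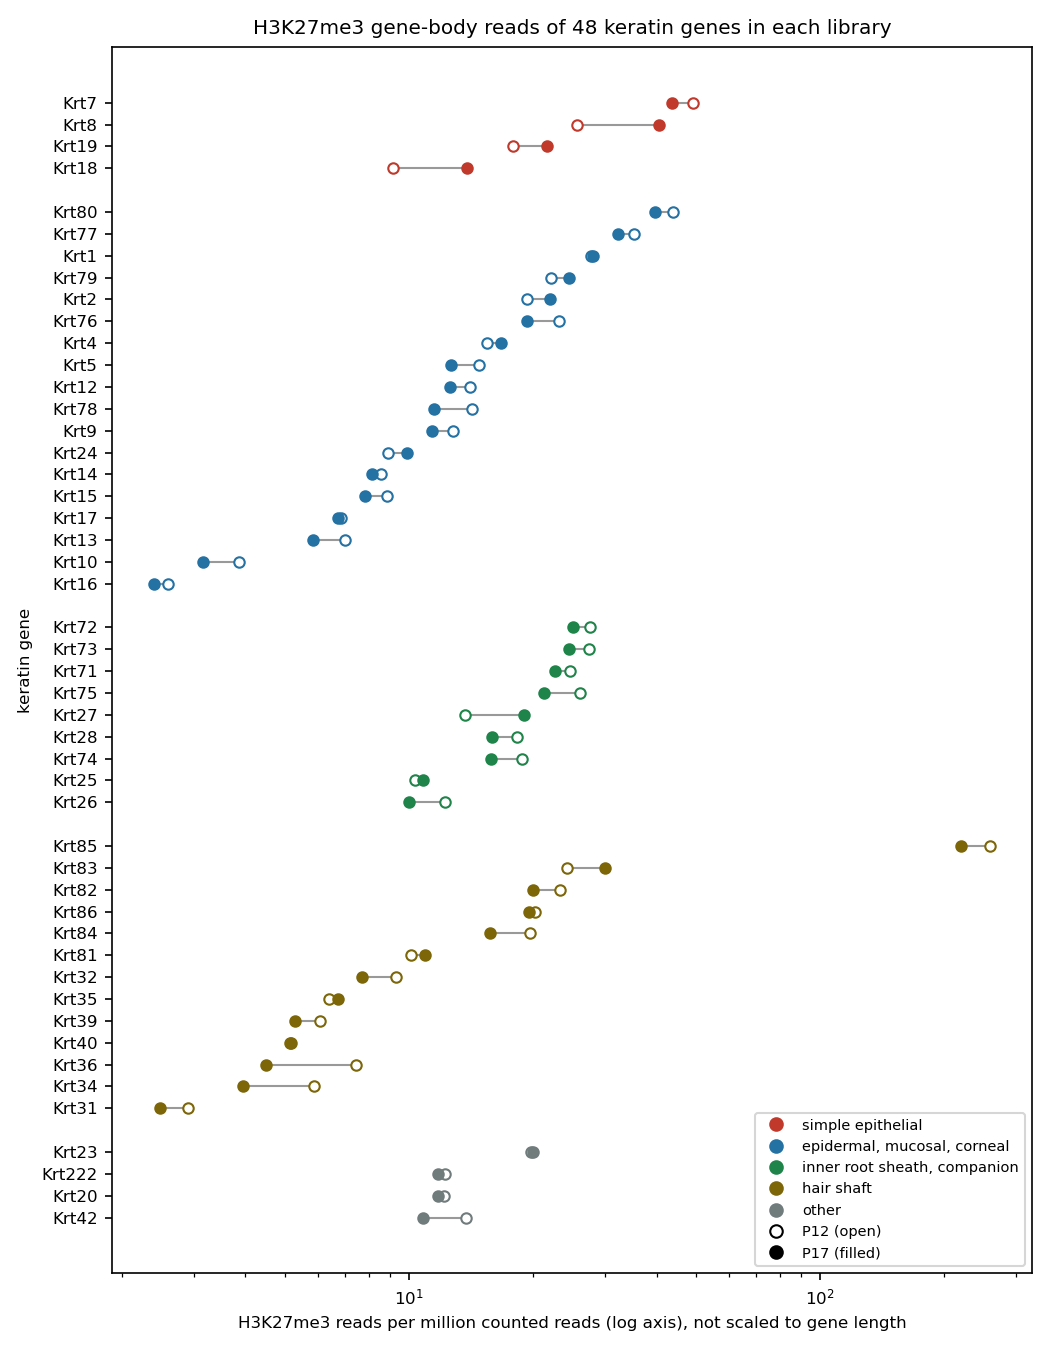
Open and filled points give the H3K27me3 level of each keratin gene at P12 and P17 in CPM on a log axis, not scaled to gene length, with genes grouped by class. Krt8 moves from 25.6 to 40.6 CPM, whereas most skin and hair keratins shift slightly to the left, and Krt85 stands far to the right at 259 and 220 CPM.

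Keratins of the epidermis, other stratified epithelia and cornea numbered 18. Their log2 ratios ran from -0.31 to 0.18 with a median of -0.14. Of their intervals, 2 lay above the typical gene and 0 below, beside 21.2% and 10.1% of all genes, so neither share exceeded that of all genes. Krt5 and Krt14, the type II and type I keratins of the basal epidermal layer, had 199 and 338 reads, and 115 and 217 reads, at P12 and P17. Their log2 ratios of -0.22 and -0.07 both had intervals spanning the typical gene. Krt15, another basal type I keratin known from hair follicle stem cells, stood at -0.18 on 119 and 208 reads.

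The suprabasal pair Krt1 and Krt10, which replaces Krt5 and Krt14 as epidermal cells differentiate, also showed no separation from the typical gene. Krt1 had 373 and 749 reads (0.02), and Krt10 had only 52 and 84 (-0.29, -0.81 to 0.23). Krt2, a late suprabasal type II keratin, had 261 and 586 reads, or 19.4 and 21.98 CPM. Its log2 ratio of 0.18 (-0.03 to 0.40) was the highest of this class and lay above the typical gene, but the interval included a ratio of 1. The same held for Krt79, at 0.15 on 298 and 655 reads. Krt9, the keratin of palm and sole skin, had 172 and 303 reads (-0.17).

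The mucosal partners Krt4 and Krt13 had 209 and 447 reads (0.11) and 94 and 156 reads (-0.25). Krt76, a suprabasal keratin of oral epithelium, had 312 and 517 reads (-0.26), and the corneal keratin Krt12 had 189 and 335 (-0.16). Krt16 and Krt17, induced in wounded epidermis, were thinly covered, with 35 and 64 reads (-0.11) and 92 and 179 reads (-0.03). Of these 6 genes, none had an interval clear of the typical gene, and at 99 reads over both libraries Krt16 had the fewest of all members.

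The remaining genes of this class showed the same. Krt80 had 590 and 1056 reads, or 43.8 and 39.6 CPM, with a log2 ratio of -0.15. Krt77, known from sweat gland ducts, had 476 and 862 reads, or 35.4 and 32.3 CPM, at -0.13. Krt78 had 192 and 307 reads (-0.31) and Krt24 had 120 and 263 (0.15). All 4 intervals spanned the typical gene.

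Inner root sheath keratins, which build the layers that mould the growing hair, and the companion layer keratin Krt75 made 9 genes with a median log2 ratio of -0.16. Krt27, a type I keratin of the inner root sheath, departed from its class. It had 184 reads at P12 and 509 at P17, or 13.7 and 19.1 CPM, with a log2 ratio of 0.48 (0.24 to 0.73). Its neighbours in the cluster and in function, Krt26 and Krt28, had 165 and 266 reads (-0.30) and 246 and 425 reads (-0.20). Krt25, the next gene of this group, had 139 and 289 reads (0.07).

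The type II members of the group lay close together. Krt71 had 331 and 605 reads (-0.12), Krt72 had 372 and 670 (-0.14), Krt73 had 368 and 654 (-0.16), and Krt74 had 253 and 422 (-0.25). Their intervals all spanned the typical gene. Krt75, with 350 and 567 reads, stood at -0.29 (-0.48 to -0.09), below it.

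Hair shaft keratins, the cysteine-rich hard keratins, had the lowest median of the classes, -0.22 over 13 genes, and 4 of the 5 keratin intervals below the typical gene. That is 4 of 13 genes below, beside 10.1% of all genes, and 1 of 13 above, beside 21.2%. Krt36 had 100 reads at P12 and 120 at P17, or 7.43 and 4.50 CPM, and a log2 ratio of -0.72 (-1.12 to -0.33). Krt34 had 79 and 105 reads, or 5.87 and 3.94 CPM, at -0.57 (-1.01 to -0.14). Both are type I genes of the chromosome 11 cluster with few reads. Krt84, a type II hard keratin known from the tongue, stood at -0.32 (-0.55 to -0.09) on 265 and 420 reads.

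Krt85, a type II keratin of the early hair shaft, held by far the most reads of any member, 3490 and 5871, or 259 and 220 CPM. These were 25.2% and 22.8% of all keratin reads. Its log2 ratio was -0.24 (-0.30 to -0.17). Gene lengths of the build used for counting were not at hand, so reads are not compared between genes as density, and what sets the Krt85 count apart was not tested. Krt35, its type I partner, had 86 and 179 reads (0.07).

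Krt83 was the only hair shaft gene above the typical gene, with 326 and 798 reads, or 24.2 and 29.9 CPM, and a log2 ratio of 0.31 (0.12 to 0.50). It lies beside Krt81 and Krt86, which it closely resembles in sequence, so the assignment of reads among the 3 is uncertain. Krt81 had 136 and 292 reads (0.12) and Krt86 had 272 and 522 (-0.05). The cuticle keratins Krt32 and Krt82 had 125 and 205 reads (-0.27) and 313 and 533 (-0.22). Krt31 had 39 and 66 reads (-0.22), Krt39 had 82 and 141 (-0.20) and Krt40 had 69 and 138 (0.01), all with intervals spanning the typical gene.

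The last 4 members fit none of these classes well. Krt20, of intestinal and urothelial cells, had 164 and 314 reads (-0.05), and Krt23 had 267 and 535 (0.02). Krt222 had 165 and 314 reads (-0.06). Krt42, a type I gene, had 185 and 288 reads, or 13.7 and 10.8 CPM, and a log2 ratio of -0.35 (-0.62 to -0.07), whose interval reached just past the typical gene. Keratins whose names carry a letter were outside the rule. Of these, Krt6a had 62 and 102 reads (-0.26), Krt6b 70 and 95 (-0.54, -1.01 to -0.08), Krt33a 80 and 125 (-0.34) and Krt33b 99 and 205 (0.06). Only the interval of Krt6b was clear of the typical gene. Krt6a and Krt6b are near-identical, as are Krt33a and Krt33b, so their split of reads is uncertain.

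Type of keratin did not separate the ratios. The 26 type I genes had a median of -0.14, with 3 intervals higher than the typical gene and 2 lower, and the 22 type II genes had a median of -0.14, with 4 higher and 3 lower. Over all genes 21.2% were higher and 10.1% lower, so these counts single out neither type.

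Position along the chromosomes was taken from the RefSeq table, for order only and over genes with at least 20 reads. Krt8 and Krt18 are adjacent and form the end of the type II cluster. Krt78, next to Krt8 inside the cluster, stood at -0.31, and Eif4b, a translation initiation factor gene next to Krt18 outside it, at -0.37 (-0.61 to -0.13). The higher ratio thus covered the pair and neither immediate neighbour. Further out on that side, Spryd3 stood at -0.14 and Igfbp6, which encodes an insulin-like growth factor binding protein, at 0.91 (0.70 to 1.12), higher than Krt8. At the other end of the cluster, the flanking genes Grasp and Nr4a1 stood at 0.86 and 0.61, while Krt80 and Krt7, next inside, stood at -0.15 and -0.17. In the type I cluster, Krt19 (0.28) lay between Krt15 (-0.18) and Krt9 (-0.17), and Krt27 (0.48) between Krt26 (-0.30) and Krt28 (-0.20). Apart from the pair itself, the intervals of Krt8, Krt18 and Krt27 lay clear of those of the genes beside them. The interval of Krt19 (0.06 to 0.50) overlapped those of Krt15 (-0.51 to 0.16) and Krt9 (-0.44 to 0.11). Of the other members above the typical gene, Krt2 (0.18) lay between Krt73 (-0.16) and Krt1 (0.02). Krt79 (0.15) lay between Krt4 (0.11) and Krt78, and Krt83 (0.31) beside Krt86 (-0.05), again with overlapping intervals.

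**Figure D3:**
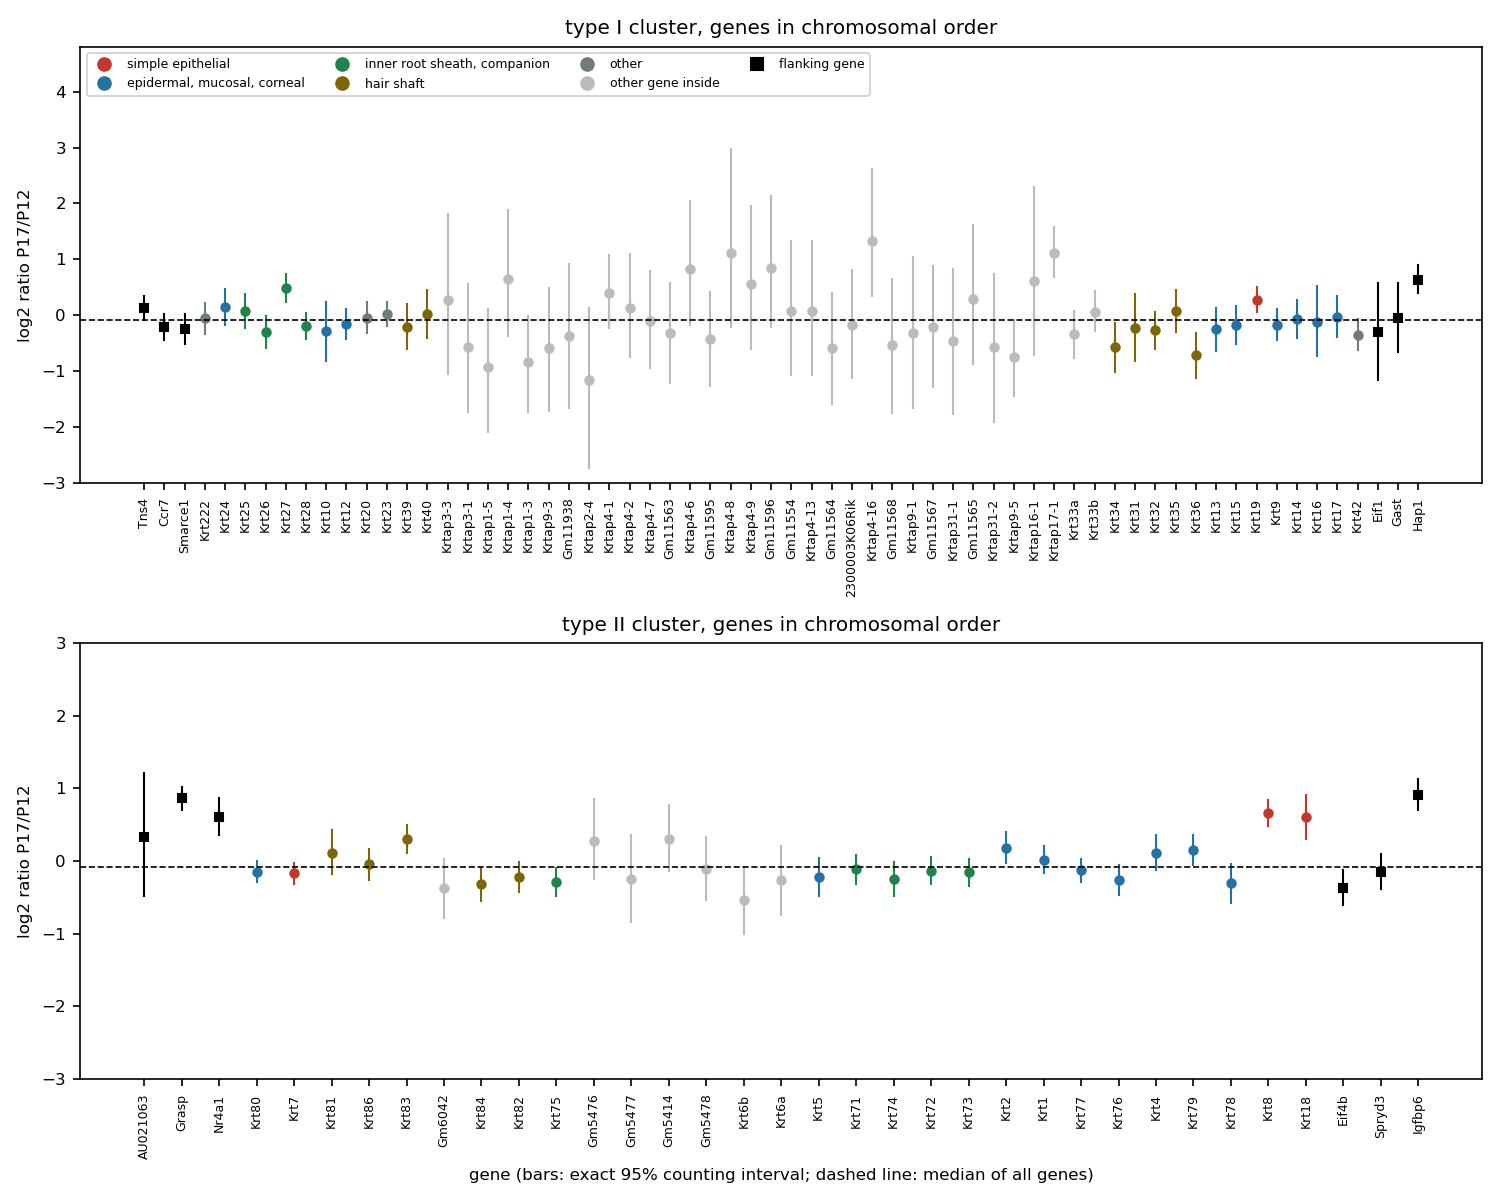
Log2 ratios P17 over P12 with exact 95% counting intervals are drawn in chromosomal order for the type I cluster (top) and the type II cluster (bottom), with the 3 nearest flanking genes on each side as black squares and the all-gene median as a dashed line. Krt8 and Krt18 stand above their neighbours Krt78 and Eif4b. Krt19 and Krt27 stand above the genes beside them, Krt19 with an interval that overlaps theirs.

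Upstream sequence was compared over the 34 keratins with a RefSeq window, Krt13 having 2, which makes 35 windows. No window was listed for the other 14, among them Krt19. The median keratin window held 4 CpGs in 250 bases, against 6 over all 32851 windows. Outside the simple epithelial class, 32 windows held 1 to 9. At least as many CpGs as Krt18 were found in 33.5% of all windows, and at least as many as Krt7 in 25.4%. In the sequences printed above, the CpG-rich windows belong to Krt18, with a higher ratio, and Krt7, without. The window of Krt8, with the highest ratio, is as poor in CpGs as those of many skin keratins. Bases after the start site were not counted, so a CpG-rich stretch there would not be seen. Whether CpG content bears on the ratios was not tested.

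Across all genes with a single window, the median log2 ratio was -0.10 at 0 to 3 CpGs, -0.06 at 4 to 10, -0.08 at 11 to 19 and -0.09 at 20 to 55. The share of genes with intervals above the typical gene was 9.16% at 0 to 3 CpGs and between 21.6% and 24.97% in the other classes, and the share below ran from 6.86% to 12.8%. Fewer genes of the CpG-poorest class were thus called in either direction, while the class medians lay close together. A call depends on read count, and reads were not compared between these classes, so the shares are not a result about CpG content. Over the 33 keratins with a single window, Spearman's rho between CpG count and ratio was 0.23. It was 0.21 over the 30 of them outside the simple epithelial class and 0.03 over 13231 genes. These values are a description only, since all points come from the same pair of libraries. The motif TATAAA, searched on both strands in the last 50 bases before the start site, was found in 14 of the 35 keratin windows and in 3.50% of all windows. The windows of Krt27 and of Krt10 were among the 14, and none of the 3 simple epithelial windows was. The motif GGGCGG, on both strands over the 250 bases, was found in 32.7% of all windows and in those of Krt7 and Krt75, neither of which held TATAAA.

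**Figure D4:**
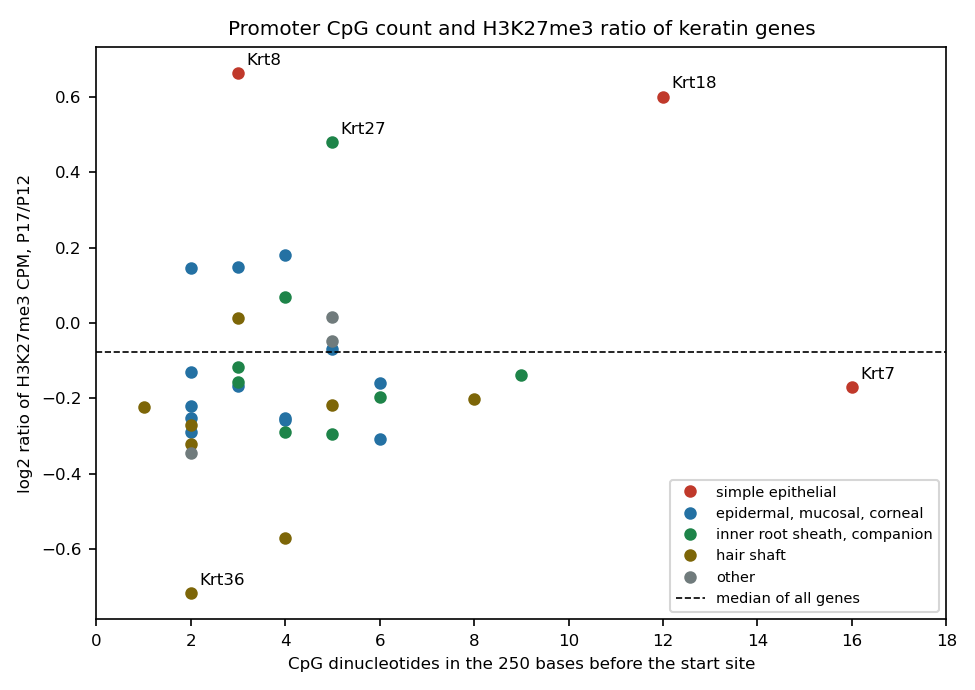
Each point is a keratin upstream window, placed by its number of CpG dinucleotides in 250 bases (horizontal) and the log2 ratio P17 over P12 of its gene (vertical), coloured by class. Krt7 with 16 CpGs lies at -0.17, Krt18 with 12 at 0.60, and Krt8 with 3 at 0.66.

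Genes that work with keratins were listed alongside, and their share above the typical gene is to be read against the 21.2% of all genes. Of 16 other intermediate filament genes, 7 had intervals above and 0 below, with a median log2 ratio of 0.12. Vim, the filament gene of mesenchymal and Sertoli cells, had 228 and 1064 reads and a ratio of 1.23 (1.03 to 1.45). The neurofilament genes Nefm and Nefl stood at 0.53 and 0.52, and Lmna, a nuclear lamina gene, at 0.65. Lmnb1 was lowest at -0.12. Krt8 and Krt18 were thus close to several non-keratin filament genes and well under Vim.

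Desmosomes and linker proteins anchor keratin filaments to the membrane. Of 23 such genes measured, 7 were above and 2 below, with a median of 0.00. Dsp, which encodes desmoplakin, the protein that ties keratins to the desmosome, was highest at 0.42 (0.32 to 0.53) on 954 and 2534 reads. Dsg1b, a desmosomal cadherin of the epidermis, was lowest at -0.37 (-0.60 to -0.13). Of 22 measured genes of the cornified envelope, the hardened shell of surface keratinocytes, 3 were above and 1 below, with a median of -0.08. Lor, encoding loricrin, had 267 and 1692 reads and a ratio of 1.68 (1.49 to 1.87), and Hrnr was lowest at -0.55. The list of 24 epithelial regulators and adhesion genes had 14 above and 2 below, with a median of 0.18. Sfn, an epithelial 14-3-3 protein, was highest at 1.44 (1.04 to 1.88) and Grhl1, an epidermal transcription factor, lowest at -0.36.

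Markers of somatic testis cells are given because Krt18 and Vim are known from Sertoli cells. Of 13 Sertoli markers measured, 7 were above and 1 below the typical gene, with a median of 0.33, from Sox9 at 0.93 to Tjp1 at -0.33. Their summed level was 550 CPM at P12 and 717 CPM at P17. Rhox5 was not matched. H3K27me3 reads at these genes do not show whether Sertoli cells were present. The part of these cells in the keratin ratios was not tested. Of 13 markers of Leydig, peritubular, vascular and macrophage cells, 3 were above and 1 below, with a median of 0.00, from Pdgfra at 0.39 to Cd68 at -0.74, and summed levels of 426 and 450 CPM. Enrichment of H3K27me3 over background in each library cannot be told apart from stage, since input was not analysed here.

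**Figure D5:**
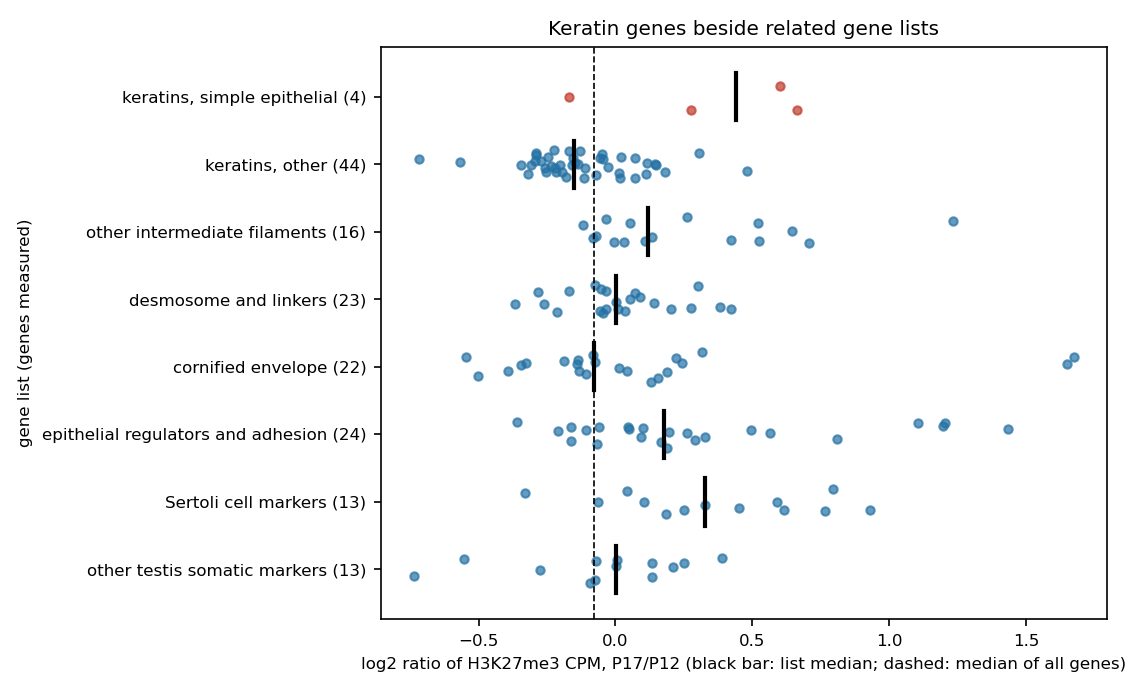
Each point is the log2 ratio P17 over P12 of 1 gene, with 1 row per gene list, the list median as a black bar and the all-gene median of -0.08 as a dashed line. The simple epithelial keratins have a median of 0.44 over 4 genes and the other keratins -0.15 over 44, beside 0.12 for other intermediate filament genes and 0.33 for Sertoli cell markers.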

How the data were processed

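H3K27me3 was measured in spermatocytes of P12 and P17. Of 7 samples, 2 entered this work. The deposited values are raw read counts per gene body, which the authors obtained with multiBamCov, going by the file names. Bowtie, SAMtools, HTSeq and mm9 are named in the submitters' processing notes, without versions. How multiply mapped reads were handled is not stated there. The 5 peak lists hold mm9 coordinates without gene names and were not used here.

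Counts were scaled to all reads in the file. The log2 ratio added 1 read, in proportion to library size, to each count, on genes with at least 20 reads over both and a single entry. Intervals were Clopper-Pearson (ratios) or Poisson (levels), at 95%, for counting error only. Differences of ratios used the conditional odds ratio. The P17 total was the larger, so P12 reads limit precision. With 1 library per stage no p-value was computed. The calculation was tested on simulated data that held counting error only and left out genes with few reads. That test could not speak to variation between libraries. Members and lists were chosen with earlier results of these data known. Named genes were the 4 simple epithelial keratins, every other member by its reads, the 3 highest and 3 lowest ratios and 5 highest P17 levels in full, and the extremes of each list. Further genes and list members named, and the comparison of upstream windows and of chromosomal neighbours, were chosen after values were seen. Other settings tried were TMM scaling (edgeR), median-of-ratios scaling, other totals, pseudocounts and read minimums, and class definitions. Python 3.11.15, scipy 1.17.1, R 4.3.3 and edgeR 4.0.16 were used.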

Additional observations from a re-analysis of the deposited data

How the results depend on the processing

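No paired analysis was possible because each stage had 1 count file. Counts of keratin intervals above and below the typical gene were 7 and 5 under every other scaling, pseudocount and read minimum tried. Another scaling shifts the intervals and the all-gene median alike, so it could not change these counts. Pseudocounts do not enter the intervals and could hardly change them. Counts over 2-fold higher or lower stayed at 0 under the same settings. The median log2 ratio of the keratins outside the simple epithelial class went from -0.15 to -0.076 with TMM factors and -0.072 with median-of-ratios factors. The all-gene median went from -0.077 to -0.0020 and 0.0015. A scaling factor shifts all genes alike, so the place of this class below the all-gene median could not change. The difference of class medians, 0.59, was 0.31 with Krt20 and Krt23 counted as simple epithelial and 0.37 with pooled reads. These pooled ratios rested in part on single genes: without Krt85 the others moved from -0.13 to -0.090, and without Krt7 the simple epithelial genes moved from 0.24 to 0.53. Of 13 keratins followed singly under 5 other scalings and pseudocounts, none changed sign, and the largest shift was 0.08. Genes with few reads, such as Krt16, Krt31 and Krt10, had intervals too wide to show a difference of the size seen at Krt19.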

Other observations

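Keratin-associated protein genes, which encode the matrix proteins that embed hair keratins, fill the middle of the type I cluster, and they were looked at after the values had been seen. Of 21 such genes inside the cluster with at least 20 reads, 2 had intervals above the typical gene and 1 below, against 21.2% and 10.1% of all genes. Many had few reads and wide intervals, such as Krtap2-4 with 11 and 9 reads (-2.72 to 0.13). At that depth few calls were possible, so these counts are not a result about the genes. Krtap17-1 had 53 reads at P12 and 229 at P17, a log2 ratio of 1.12 (0.69 to 1.58). Krtap4-16 stood at 1.34 on 9 and 47 reads, and Krtap9-5 at -0.75 on 36 and 42 reads. These are short genes of near-identical families, so the assignment of reads is uncertain. Tchh, which encodes trichohyalin, a protein of the inner root sheath that binds keratin filaments, had 580 and 3607 reads and a log2 ratio of 1.65 (1.52 to 1.78), above every keratin.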
